A study of Mus musculus with 12 samples.

Results

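A set of 10 genes of the junctions that join heart muscle cells was followed through the deletion of Med30, a subunit of the Mediator complex that links transcription factors to RNA polymerase II. They are the desmosome genes Dsg2, Dsc2, Jup, Pkp2 and Dsp, the adherens junction genes Cdh2, Ctnna1 and Ctnna3, and the Xin repeat genes Xirp1 and Xirp2. They were taken by name, and all 10 are among the 20775 genes listed in each of 2 expression tables. No expression value entered the choice rule, but earlier results of these data were known when the genes were chosen.

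Cardiomyocytes are coupled end to end at the intercalated disc, where desmosomes anchor the desmin filaments of neighbouring cells and adherens junctions anchor their actin. In a desmosome, desmoglein and desmocollin span the cleft between cells, plakoglobin and plakophilin bind their tails, and desmoplakin ties the plaque to desmin. In the adherens junction, N-cadherin spans the cleft and alpha catenins link it to actin, while the Xin repeat proteins are actin-binding proteins that are enriched at the cardiac disc. Inherited variants of the desmosome genes are a known cause of arrhythmogenic cardiomyopathy.

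RNA-seq was performed at 2 stages in mice of C57BL/6 strain. At E10.5, whole hearts were taken from Med30 f/f embryos with Tnnt-Cre, which is active in cardiomyocytes (cKO, n = 3). Med30 f/f littermates without Cre were the controls (Ctrl, n = 3). At 3 months of age and 4 weeks after tamoxifen, cardiomyocytes isolated from Med30 f/f mice with αMHC-MerCreMer, a tamoxifen-dependent Cre driven by a cardiomyocyte promoter (icKO, n = 3), were compared with cardiomyocytes of Cre-negative Med30 f/f mice that had also received tamoxifen (Ctrl, n = 3). The sample labels call the controls wild type, while the authors describe Cre-negative f/f controls at both stages. Exon 1 of Med30 is thus floxed in every group, and the floxed line goes back to a single targeted ES cell clone. As no sequenced control carried Cre alone, an effect of Cre on RNA cannot be told apart from the loss of Med30. The authors report no deaths or cardiac dysfunction after tamoxifen in αMHC-MerCreMer mice without a floxed allele. Such mice are not among the samples sequenced. Whether a sample is 1 heart or a pool of several is not stated, so the p values measure the spread between these samples.

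Values are RPKM, reads per kilobase of transcript scaled to the size of the library, so levels can be compared between genes. The spacing of the lowest values corresponded to 11.96 to 19.985 M reads per sample, and 3 reads on a transcript of 2 kb then correspond to 0.0751 to 0.125 RPKM, which covers counting error alone. Genotypes were compared within each stage with limma on log2(RPKM + 0.1) over genes with a mean above 1 RPKM, with Benjamini-Hochberg adjustment over all of them. On this scale the changes of weakly expressed genes are understated. A gene is said to have risen or fallen at an adjusted p under 0.05, and to have been called when its log2 fold change was also beyond 1. Med30 itself, the check of the labels, stood at 10.6–13.3 RPKM in the E10.5 Ctrl hearts and at 1.004–2.02 RPKM in cKO, and at 7.45–7.66 RPKM in the adult Ctrl cells and 1.83–3.81 RPKM in icKO. The 20 most abundant genes held 24.8% to 25.4% of the summed RPKM in adult Ctrl samples and 11.5% to 13.1% in icKO samples, and the log2 fold change of the median gene was 0.57 at 4 weeks against −0.13 at E10.5. Dividing each sample by its median ratio to the mean of the samples (median-ratio scaling) brought these medians to 0.04 and −0.01. Each change is therefore given on the deposited scale and, where it matters, relative to all genes.

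In the adult Ctrl cardiomyocytes, all 10 genes were expressed, from 11.2 RPKM for Dsc2 to 188 RPKM for Dsp. Dsp was the highest of the 10 and lay at the 99.2 percentile of all listed genes. Ctnna1 followed at 117 RPKM and Xirp2 at 108 RPKM, and the ranges of those 2 overlapped between samples. Xirp1 (71.9 RPKM) and Cdh2 (62.3 RPKM) also overlapped, as did Dsg2 (24.9 RPKM) and Ctnna3 (21.5 RPKM), whereas Pkp2 (49.4 RPKM) and Jup (31.3 RPKM) stood clear of their neighbours in this order. In the icKO cardiomyocytes Xirp2 (258 RPKM) and Xirp1 (196 RPKM) came first and Dsp came after Ctnna1 at 143 RPKM, a level whose range overlapped that of Ctnna1 (158 RPKM). Dsc2 was again last in the order, at 4.03 RPKM.

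The E10.5 Ctrl hearts had another order, led by Ctnna1 at 72.5 RPKM and Dsp at 50.4 RPKM. The Dsp range overlapped that of Cdh2 (41.7 RPKM), and Pkp2 (32.2 RPKM) overlapped Xirp1 (26.1 RPKM). Jup (11.6 RPKM), Dsg2 (11.03 RPKM), Ctnna3 (10.04 RPKM) and Dsc2 (9.26 RPKM) formed a lower set in which each overlapped the next. Xirp2 was barely expressed, at 0.254 RPKM in Ctrl and 0.289 RPKM in cKO, which lies under the mean of 1 RPKM needed for the test. The ratio of Xirp2 to Xirp1 was 0.00881 in E10.5 Ctrl and 1.53 in adult Ctrl, 2 materials that differ in age and in cell makeup and that were deposited as separate tables.

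**Figure D1:**
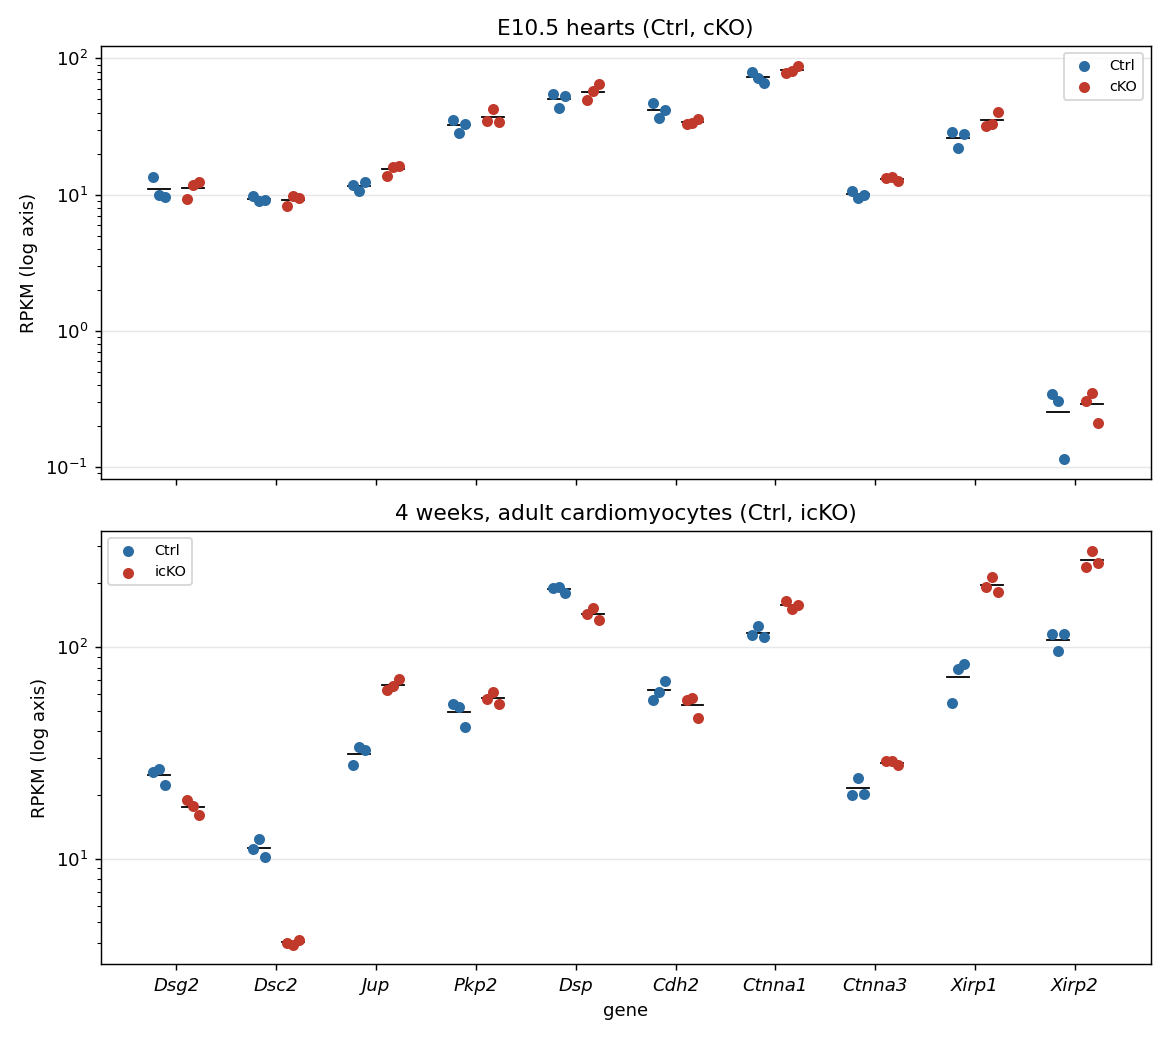
RPKM of the 10 genes in every sample, on a log axis, with E10.5 hearts above and adult cardiomyocytes 4 weeks after tamoxifen below. Blue points are Ctrl samples, red points are cKO or icKO samples and short lines are group means; at 4 weeks the red points of Jup, Ctnna1, Ctnna3, Xirp1 and Xirp2 lie above all blue ones and those of Dsg2, Dsc2 and Dsp below all blue ones.

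At 4 weeks after tamoxifen the junction genes did not move together. On the deposited scale 5 of the 10 rose (Jup, Ctnna1, Ctnna3, Xirp1 and Xirp2), 3 fell (Dsg2, Dsc2 and Dsp) and 2 did not pass the test (Pkp2 and Cdh2). Among all 9517 genes tested, 60.6% rose and 18.1% fell, so neither count is far from the background. With median-ratio scaling the split was 3 higher and 5 lower among the 10, against 34.7% and 33.5% of all genes, because Ctnna1 and Ctnna3 then missed the test while Pkp2 and Cdh2 passed it downward. Quantile normalization gave 4 higher and 4 lower (37.1% and 31.6% of all genes), and scaling to totals without the 20 most abundant genes gave 3 higher and 4 lower (50% and 23.7% of all genes). Samples of the groups did not overlap for 8 of the 10, 5 with icKO above Ctrl and 3 below, where 62% and 18.9% of all genes had such an order. The median of the 10 was 0.32 on the deposited scale, where that of all genes was 0.57, and −0.22 with median-ratio scaling, where that of all genes was 0.04. Jup, Xirp1 and Xirp2 rose, and Dsg2, Dsc2 and Dsp fell, on the deposited scale and under each of the 3 rescalings tried. In bulk RNA, fewer cells of a type and less RNA per cell cannot be told apart.

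The desmosomal cadherins both fell. Dsg2 (chromosome 18, 20558074 to 20604521, + strand, GRCm38) encodes desmoglein 2, the desmoglein of the heart. Dsg2 stood at 25.8, 26.6 and 22.2 RPKM in Ctrl replicates 1, 2 and 3 and at 19.0, 17.7 and 16.0 RPKM in icKO replicates 1, 2 and 3. Every icKO sample lay below every Ctrl sample, and the log2 fold change was −0.50 ± 0.10 (SE; limma, adjusted p = 0.00163), or −1.06 once the all-gene median is subtracted. An antisense gene, Gm16090, shares exonic sequence with Dsg2, and whether the authors counted by strand is not stated.

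Dsc2 (chromosome 18, 20030633 to 20059554, − strand) encodes desmocollin 2, the partner cadherin of desmoglein 2, and fell the most of the 10 genes. Dsc2 stood at 11.1, 12.4 and 10.2 RPKM in the Ctrl samples and at 4.00, 3.93 and 4.15 RPKM in the icKO samples. The icKO samples lay close together (coefficient of variation 2.75%) and far below the Ctrl samples. The mean fell to 0.359 of that in Ctrl, a log2 fold change of −1.45 ± 0.10 (SE; limma, adjusted p = 2.70e-06), and Dsc2 was the only one of the 10 called lower, where 8.45% of all genes were called lower. With median-ratio scaling, where Dsg2 also passed −1, the value for Dsc2 was −1.98.

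The armadillo proteins of the plaque went different ways. Jup (chromosome 11, 100368958 to 100397763, − strand) encodes plakoglobin, which is shared by desmosomes and adherens junctions. Jup stood at 27.6, 33.8 and 32.5 RPKM in the Ctrl samples and at 62.8, 65.4 and 70.8 RPKM in the icKO samples, with no overlap. The mean rose 2.12-fold, a log2 fold change of 1.09 ± 0.10 (SE; limma, adjusted p = 8.88e-06), or 0.52 relative to all genes. Without Ctrl replicate 1 the log2 fold change of Jup was 0.998, just short of a call.

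Pkp2 (chromosome 16, 16213318 to 16272712, + strand) encodes plakophilin 2, the plakophilin of the cardiac desmosome. Pkp2 stood at 54.0, 52.1 and 42.0 RPKM in the Ctrl samples and at 56.9, 61.6 and 53.9 RPKM in the icKO samples. One icKO sample lay within the Ctrl range, so the groups overlapped. The log2 fold change of 0.22 ± 0.11 did not pass (limma, adjusted p = 0.0830), and it was −0.31 (adjusted p = 0.0286) with median-ratio scaling. Without Ctrl replicate 1 it was 0.29 (limma, adjusted p = 0.0456).

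Dsp (chromosome 13, 38151294 to 38198577, + strand) encodes desmoplakin, the plakin that binds desmin. Dsp stood at 190.0, 193 and 181 RPKM in the Ctrl samples and at 144, 153 and 134 RPKM in the icKO samples. All 3 icKO samples were below all 3 Ctrl samples. The log2 fold change was −0.39 ± 0.08 (SE; limma, adjusted p = 0.00121), and −0.96 relative to all genes. Its exons overlap those of the unclassified gene Gm10129 on the other strand.

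The makeup of the desmosome transcripts differed between the groups. On the deposited scale the summed RPKM of the 5 desmosome genes was 288 to 317 in Ctrl samples and 279 to 301 in icKO samples, and these ranges overlap. With median-ratio scaling the sum was 344 to 379 in Ctrl and 231 to 248 in icKO, without overlap, so whether the sum differed depends on the scaling. Within the sum, Dsp went from 60.7–62.8% in Ctrl to 48.0–50.6% in icKO and Dsc2 from 3.54–3.90% to 1.31–1.49%. Jup went from 8.94–11.3% to 21.7–25.4%, Pkp2 from 14.6–17.5% to 19.3–20.4% and Dsg2 from 7.74–8.36% to 5.75–6.64%. Each of these 5 shares lay apart between the groups, but shares add up to the whole and are not separate results. In RPKM, Pkp2 overlapped between the groups. Of all genes, 62% had every icKO sample above every Ctrl sample in RPKM and 18.9% had every one below. Since a share is formed within a sample, a scaling factor for the sample leaves it as it is.

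**Figure D2:**
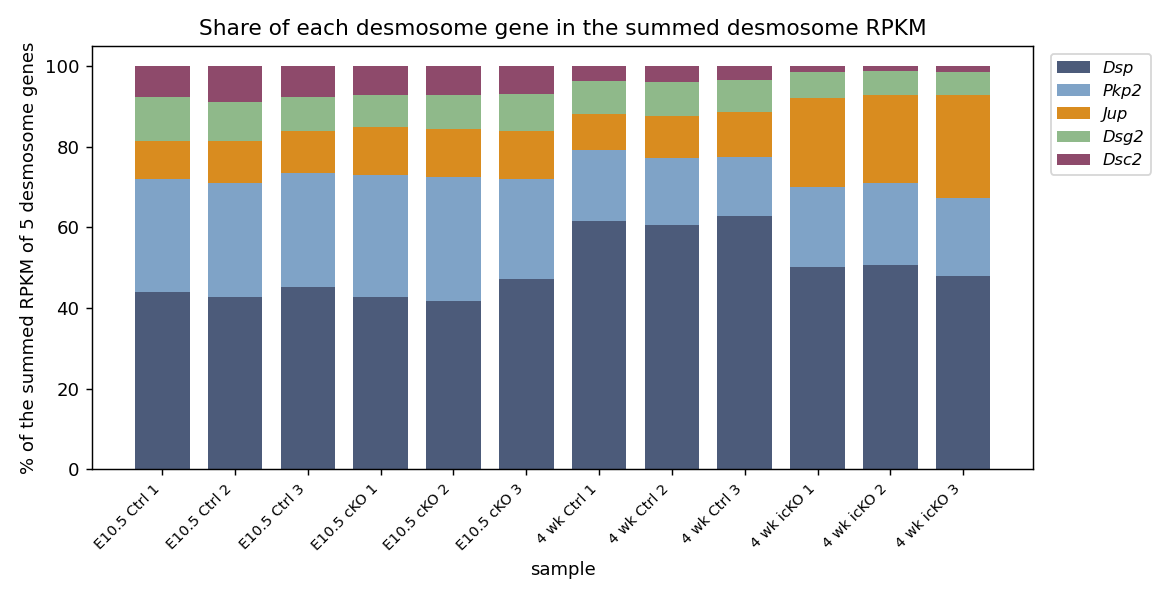
Share of each desmosome gene in the summed RPKM of Dsp, Pkp2, Jup, Dsg2 and Dsc2 (percent), one stacked bar per sample. The orange Jup segment is 8.94–11.3% in adult Ctrl samples and 21.7–25.4% in icKO samples, while Dsp and Dsc2 take smaller shares in icKO than in Ctrl; at E10.5 the Jup segment is 9.42–10.54% in Ctrl and 11.7–11.9% in cKO.

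Of the adherens junction genes, on the deposited scale the classical cadherin did not pass the test and both alpha catenins rose slightly. Neither alpha catenin rose with median-ratio scaling. Cdh2 (chromosome 18, 16588877 to 16809246, − strand) encodes N-cadherin. Cdh2 stood at 56.1, 61.4 and 69.4 RPKM in the Ctrl samples and at 56.3, 57.3 and 46.2 RPKM in the icKO samples. The groups overlapped on the deposited scale, with a log2 fold change of −0.23 ± 0.11 (SE; limma, adjusted p = 0.0879). Without Ctrl replicate 1 the change was −0.30 (limma, adjusted p = 0.0453), and with median-ratio scaling −0.77 (adjusted p = 0.000192).

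Ctnna1 (chromosome 18, 35118859 to 35254779, + strand) encodes αE-catenin, the widely expressed alpha catenin. Ctnna1 stood at 114, 126 and 111 RPKM in the Ctrl samples and at 165, 151 and 159 RPKM in the icKO samples. The 2 groups did not overlap, and the log2 fold change was 0.44 ± 0.08 (SE; limma, adjusted p = 0.000727) on the deposited scale but −0.10 (adjusted p = 0.253) with median-ratio scaling. Lrrtm2, a gene on the other strand, shares exonic sequence with Ctnna1.

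Ctnna3 (chromosome 10, 63430098 to 65003667, + strand) encodes αT-catenin, an alpha catenin of heart and testis that also binds plakophilin 2. Ctnna3 stood at 20.1, 24.1 and 20.3 RPKM in the Ctrl samples and at 28.8, 28.9 and 27.6 RPKM in the icKO samples. Its groups were apart as well, with a log2 fold change of 0.41 ± 0.09 (SE; limma, adjusted p = 0.00296) on the deposited scale and −0.13 (adjusted p = 0.216) with median-ratio scaling. Relative to the median of all genes, the change was −0.13 for Ctnna1 and −0.16 for Ctnna3.

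The Xin repeat genes rose the most of the 10. Xirp1 (chromosome 9, 120013755 to 120023598, − strand) encodes Xin, an actin-binding protein of the intercalated disc. Xirp1 stood at 54.3, 78.4 and 83.1 RPKM in the Ctrl samples and at 193, 213 and 183 RPKM in the icKO samples. The lowest icKO sample was well above the highest Ctrl sample, and the mean rose 2.73-fold, with a log2 fold change of 1.47 ± 0.15 (SE; limma, adjusted p = 2.23e-05).

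Xirp2 (chromosome 2, 67446002 to 67526614, + strand) encodes the second Xin repeat protein, which is made in heart and skeletal muscle. Xirp2 stood at 115, 95.4 and 115 RPKM in the Ctrl samples and at 240.0, 284 and 249.5 RPKM in the icKO samples. All icKO samples were above all Ctrl samples, and the mean rose 2.38-fold (log2 fold change 1.25 ± 0.10 SE; limma, adjusted p = 5.32e-06). Relative to the median of all genes, Xirp1 and Xirp2 rose by 0.90 and 0.68, and with Jup they were the 3 of the 10 called higher, where 28% of all genes were called higher on the deposited scale. With median-ratio scaling none of the 3 passed a log2 fold change of 1, where 11.6% of all genes were called higher and 15.5% lower. The antisense gene Gm13601 shares exonic sequence with Xirp2.

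Of the 10 genes, 4 (Xirp2, Jup, Ctnna3 and Dsp) were matched to a promoter window in RefSeq (GRCm38.p6). The sequence upstream of the annotated start is shown for 3 genes that rose on the deposited scale, of which Ctnna3 did not rise with median-ratio scaling, to set the only MEF2 match among the first starts beside windows without one. They are chr2:67445752-67445999 on the + strand for Xirp2, chr11:100397840-100398040 on the − strand for Jup and chr10:63429848-63430097 on the + strand for the first start of Ctnna3, each 5′ to 3′, with a match to the MEF2 site in capitals.
Xirp2 promoter: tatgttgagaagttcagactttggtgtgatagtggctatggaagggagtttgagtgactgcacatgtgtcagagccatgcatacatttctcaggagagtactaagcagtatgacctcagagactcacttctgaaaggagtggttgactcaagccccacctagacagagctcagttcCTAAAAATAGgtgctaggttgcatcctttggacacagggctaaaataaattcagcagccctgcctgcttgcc
Jup promoter: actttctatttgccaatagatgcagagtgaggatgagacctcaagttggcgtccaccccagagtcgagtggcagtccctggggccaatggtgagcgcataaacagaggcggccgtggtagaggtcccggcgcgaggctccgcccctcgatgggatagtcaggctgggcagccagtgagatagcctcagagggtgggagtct
Ctnna3 promoter: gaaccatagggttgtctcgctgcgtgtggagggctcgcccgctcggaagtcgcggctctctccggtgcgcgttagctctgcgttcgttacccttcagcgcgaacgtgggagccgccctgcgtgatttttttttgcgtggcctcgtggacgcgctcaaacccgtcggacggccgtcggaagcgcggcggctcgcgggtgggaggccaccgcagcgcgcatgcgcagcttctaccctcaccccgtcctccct
The Xirp2 window is 248 bases long with a GC content of 46.8% and holds 1 match to the MEF2 site, the binding sequence of a family of muscle transcription factors, 74 to 65 bases before the annotated start. A MEF2 site by this rule stands in 2.92% of 32851 windows of 250 bases before annotated starts. The windows of Jup (201 bases, GC 60.2%), the first Ctnna3 start (250 bases, GC 67.6%) and Dsp (250 bases, GC 72.4%) held no match to any of 5 motifs searched on both strands. The Jup window leaves out the 49 bases next to the RefSeq start, and that of Xirp2 the last 2, so for Jup the absence of a match covers the 201 printed bases only. These were the MEF2 site, the CArG box of serum response factor, the MCAT element (CATTCC), the GATA site (AGATAA or TGATAA) and the TATA box (TATAAA), the last 3 of which stand in 12.6%, 16.6% and 12.4% of all windows and the CArG box in 1.47%. A later Ctnna3 start had an MCAT match 109 to 104 bases upstream, and another had a GATA and a TATA match. A match of letters describes the window only.

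**Figure D3:**
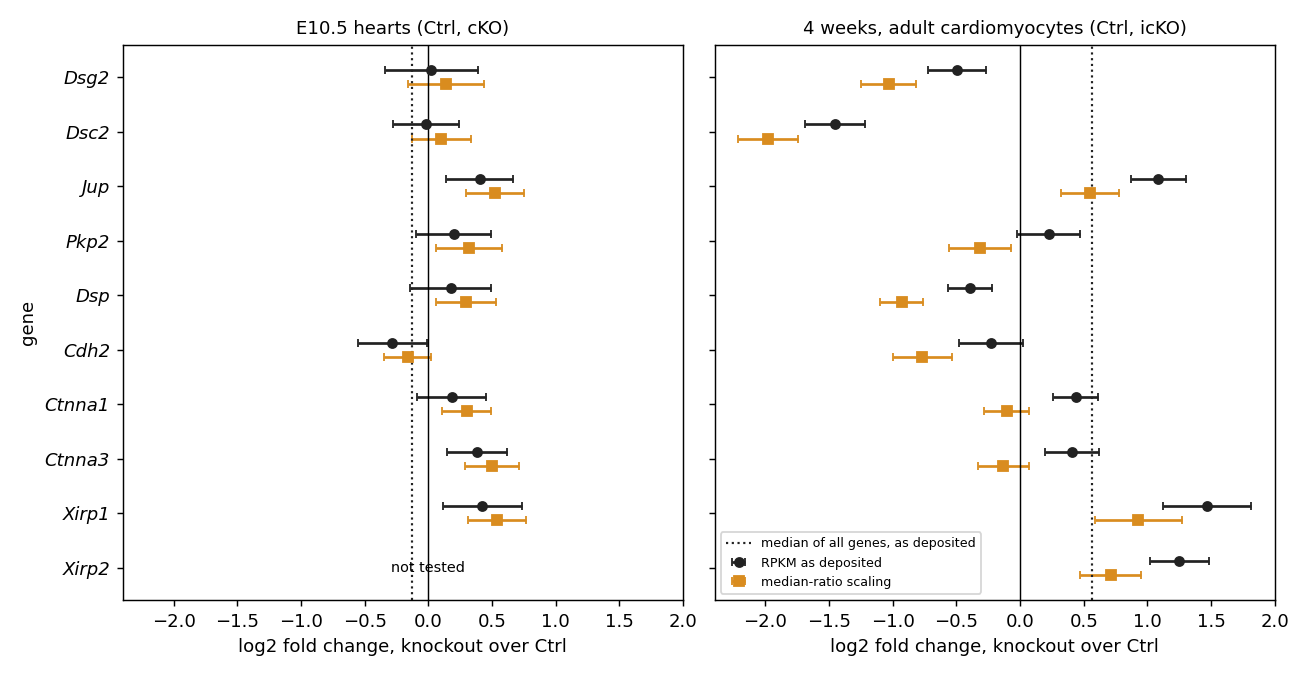
Log2 fold change (knockout over Ctrl) of each gene with its 95% confidence interval from limma, at E10.5 on the left and at 4 weeks on the right. Black circles use the deposited RPKM, orange squares median-ratio scaling, and the dotted line is the median of all genes on the deposited scale; at 4 weeks Pkp2, Ctnna1 and Ctnna3 change sign between the scales, as Dsc2 does at E10.5, while Jup, Xirp1 and Xirp2 stay above 0 and Dsg2, Dsc2 and Dsp below 0 at 4 weeks.

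In the E10.5 hearts, none of the 9 junction genes tested rose or fell on the deposited scale (limma, adjusted p under 0.05), where 0.864% of 10885 genes rose and 3.45% fell. At an unadjusted p under 0.05 there were 4 of the 9 (Jup, Ctnna3, Xirp1 and Cdh2), against 23.6% of all genes. With median-ratio scaling 3 rose (Jup, Ctnna3 and Xirp1), against 2.45% of all genes, and none fell, against 2.6%. With quantile normalization or with totals without the 20 most abundant genes, Ctnna1 rose too, against 2.82% and 3.76% of all genes, and none fell, against 2.38% and 1.93%. The median of the 9 was 0.18, beside −0.13 for all genes tested. Of the 9, 3 had every cKO sample above every Ctrl sample, against 6.5% of all genes, and 1 had every cKO sample below, against 22.6%.

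Jup stood at 11.8, 10.6 and 12.3 RPKM in E10.5 Ctrl hearts and at 13.7, 16.1 and 16.3 RPKM in cKO hearts. The cKO samples were all higher, with a log2 fold change of 0.40 ± 0.12 (SE; limma, adjusted p = 0.0825) on the deposited scale and 0.52 (adjusted p = 0.0262) with median-ratio scaling. Pkp2, its relative in the plaque, stood at 35.4, 28.4 and 32.9 RPKM in Ctrl and at 34.8, 42.4 and 33.9 RPKM in cKO. Those groups overlapped, with a log2 fold change of 0.20 ± 0.13 (SE; limma, adjusted p = 0.384).

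The desmosome sum overlapped between the E10.5 groups on the deposited scale (101–126 RPKM in Ctrl, 115–137 RPKM in cKO) but not with median-ratio scaling (102–113 and 122–146). Within it, Jup took 9.42–10.54% in Ctrl and 11.7–11.9% in cKO and Dsc2 7.76–8.83% and 6.92–7.17%, both without overlap. The shares of Dsp, Pkp2 and Dsg2 overlapped. Here too the shares add up to the whole and are not separate results. In RPKM, 6.5% of all genes had every cKO sample above every Ctrl sample and 22.6% had every one below. The RPKM of Dsg2, Dsc2 and Dsp overlapped between the E10.5 groups. Dsg2 stood at 13.5, 9.90 and 9.65 RPKM in Ctrl and at 9.30, 11.8 and 12.4 RPKM in cKO, a log2 fold change of 0.02 ± 0.16. Dsc2 stood at 9.75, 8.91 and 9.12 RPKM in Ctrl and at 8.27, 9.79 and 9.45 RPKM in cKO, a log2 fold change of −0.02 ± 0.12 that turned to 0.10 with median-ratio scaling. Dsp stood at 55.1, 43.2 and 53.1 RPKM in Ctrl and at 49.3, 57.2 and 64.4 RPKM in cKO, a log2 fold change of 0.17 ± 0.14. For Dsc2 the 95% confidence interval ran from −0.28 to 0.24, so a decrease of the size seen at 4 weeks lay outside it, while smaller changes lay inside.

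Cdh2 stood at 47.0, 36.5 and 41.6 RPKM in E10.5 Ctrl hearts and at 32.8, 33.5 and 36.1 RPKM in cKO hearts. Every cKO sample was below every Ctrl sample, the only one of the 9 with this order, but the log2 fold change of −0.28 ± 0.12 did not pass (limma, adjusted p = 0.197). Ctnna3 stood at 10.7, 9.49 and 9.98 RPKM in Ctrl and at 13.2, 13.4 and 12.7 RPKM in cKO. All its cKO samples were higher, with a log2 fold change of 0.38 ± 0.11 (SE; limma, adjusted p = 0.0705), or 0.50 (adjusted p = 0.0233) with median-ratio scaling.

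Ctnna1 stood at 78.9, 72.3 and 66.4 RPKM in E10.5 Ctrl hearts and at 77.7, 80.6 and 88.4 RPKM in cKO hearts, and its groups overlapped. Its log2 fold change of 0.18 ± 0.12 did not pass (limma, adjusted p = 0.384). Xirp1 stood at 28.7, 22.1 and 27.6 RPKM in Ctrl and at 32.0, 32.9 and 40.1 RPKM in cKO. Here all cKO samples were higher, with a log2 fold change of 0.42 ± 0.14 (SE; limma, adjusted p = 0.107), or 0.54 (adjusted p = 0.0233) with median-ratio scaling. Xirp2 was listed at 0.345, 0.304 and 0.114 RPKM in Ctrl and at 0.304, 0.350 and 0.212 RPKM in cKO, above the 0.0125 to 0.0209 RPKM that correspond to 3 reads on its transcript, and was not tested.

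The effects of the knockouts at the 2 stages were compared by a contrast in 1 limma fit of all 12 samples, for the 9 genes tested at both stages. The effect was lower at 4 weeks than at E10.5 for Dsc2 (difference in log2 −1.43 ± 0.15, adjusted p = 3.02e-06), Dsp (−0.57 ± 0.17, adjusted p = 0.00917) and Dsg2 (−0.52 ± 0.21, adjusted p = 0.0383). It was higher at 4 weeks for Xirp1 (1.05 ± 0.22, adjusted p = 0.00102) and Jup (0.68 ± 0.15, adjusted p = 0.00148). Among all 8909 genes in this fit, 59.4% had a higher and 9.29% a lower effect at 4 weeks. Beyond 1 in log2 were Xirp1 above and Dsc2 below, where the shares of all genes were 34.3% and 5.03%. With median-ratio scaling these shares were 26.7% and 26.3%, and the differences of Jup (−0.01, adjusted p = 0.942) and Xirp1 (0.35, adjusted p = 0.158) no longer passed, while the 7 other genes all had a lower effect at 4 weeks, 3 of them (Dsp, Dsg2 and Dsc2) beyond 1, where 13.1% of all genes lay beyond 1 on that side and 9.97% on the other. With quantile normalization 1 of the 9 genes had a higher and 6 a lower effect (25.5% and 19.8% of all genes), and with totals without the 20 most abundant genes 1 and 5 (39.7% and 17.4%). The Dsg2 difference no longer passed without any one of 8 samples, with values of −0.43 to −0.53. At E10.5 these were Ctrl replicates 2 and 3 and cKO replicates 2 and 3. At 4 weeks they were Ctrl replicates 1 and 2 and icKO replicates 2 and 3. The stages differ in the Cre line, in age and in material as well, and these cannot be told apart here.

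Ratios of 2 genes with the same role were formed within each sample, so that scaling between samples drops out. They were added after the values had been seen. The log2 ratio of Dsc2 to Dsg2 was −1.15 ± 0.06 (SD, n = 3) in adult Ctrl and −2.12 ± 0.16 in icKO. The RPKM of Dsc2 was thus 0.451 of that of Dsg2 in Ctrl and 0.229 of it in icKO, with no overlap between the groups. The log2 ratio of Jup to Pkp2 was −0.65 ± 0.30 in adult Ctrl and 0.21 ± 0.16 in icKO, so Jup stood below Pkp2 in every adult Ctrl sample and above it in every icKO sample. For both ratios a two-sided exact permutation test gave p = 0.1, the smallest value that 3 samples against 3 allow. In RPKM, 62% of all genes had every icKO sample above every Ctrl sample and 18.9% had every one below. How often ratios of other gene pairs lie apart was not tested at either stage.

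The other 2 ratios stayed together at 4 weeks. The log2 ratio of Ctnna3 to Ctnna1 was −2.45 ± 0.06 in Ctrl and −2.47 ± 0.08 in icKO (exact permutation p = 0.6), and that of Xirp2 to Xirp1 was 0.61 ± 0.42 in Ctrl and 0.39 ± 0.07 in icKO (exact permutation p = 0.6). At E10.5 the ratio of Jup to Pkp2 was also higher in all cKO samples, at −1.27 ± 0.18 against −1.47 ± 0.09 in Ctrl (exact permutation p = 0.1). The E10.5 ratios of Dsc2 to Dsg2, Ctnna3 to Ctnna1 and Xirp2 to Xirp1 overlapped between genotypes (exact permutation p = 0.7, 0.2 and 0.8). These 8 comparisons were not adjusted, since none could pass 0.05.

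**Figure D4:**
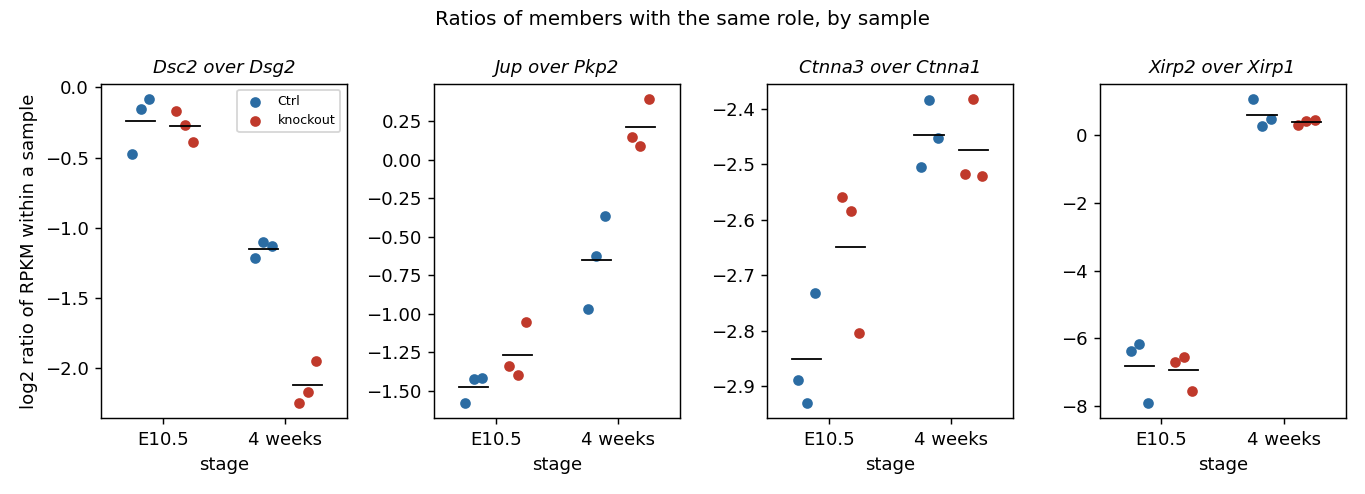
Log2 ratio of the RPKM of 2 genes with the same role within each sample, for 4 pairs at both stages, with lines at group means. Blue points are Ctrl and red points knockout samples, and each panel has its own axis; at 4 weeks Dsc2 over Dsg2 is lower in all icKO samples and Jup over Pkp2 is higher in all of them, while the other 2 pairs overlap.

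Of 15 other genes of the desmosome and of intermediate filament anchoring, 11 had a mean of 1 RPKM or less at either stage and were not tested. The 4 tested at both stages were Pkp4, Perp, Des and Plec. At 4 weeks 3 of the 4 rose (Pkp4, Des and Plec), none fell, and their median log2 fold change was 1.35, where 60.6% of all genes rose and 18.1% fell. With median-ratio scaling the same 3 rose and Perp fell (−0.38, limma, adjusted p = 0.00165), where 34.7% of all genes rose and 33.5% fell. Pkp4, an armadillo protein related to the plakophilins, rose from 17.02 ± 1.33 RPKM in Ctrl to 51.1 ± 4.40 RPKM in icKO (SD, n = 3; log2 fold change 1.58, limma, adjusted p = 1.16e-06). Plec, the cytoskeletal linker plectin and a plakin like desmoplakin, rose from 54.8 ± 3.37 to 147 ± 5.58 RPKM (1.42, limma, adjusted p = 6.80e-07). At E10.5 Plec rose as well, from 8.85 ± 1.41 to 13.2 ± 1.02 RPKM (0.59, limma, adjusted p = 0.0457), the only one of the 4 to do so. That E10.5 change of Plec no longer passed without a filter (adjusted p = 0.0746), with eBayes without trend (0.0865), with the replicate block (0.0645) or without any one of the 6 samples (0.0533 to 0.148).

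Of 32 other adherens junction and intercalated disc genes, 26 were tested at 4 weeks, where 18 rose, 6 fell and 2 did not pass, with a median of 0.74 beside 0.57 for all genes, of which 60.6% rose and 18.1% fell. With median-ratio scaling 11 rose and 8 fell, against 34.7% and 33.5% of all genes. Zyx, the actin-associated protein zyxin, rose from 8.31 ± 1.40 to 73.9 ± 9.57 RPKM (SD, n = 3; log2 fold change 3.14, limma, adjusted p = 3.02e-07). Tln1, the integrin-binding talin 1, rose from 13.6 ± 0.745 to 75.9 ± 3.15 RPKM (2.48, limma, adjusted p = 1.06e-07). Myzap, a desmoplakin-binding protein of the cardiac disc, fell from 141 ± 8.03 to 36.6 ± 4.54 RPKM (−1.95, limma, adjusted p = 5.72e-07), and Lmo7, a LIM protein that binds afadin, from 89.7 ± 2.17 to 37.4 ± 3.30 RPKM (−1.26, limma, adjusted p = 1.73e-06).

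At E10.5, 29 of the 32 were tested, of which 1 rose and 1 fell, against 0.864% and 3.45% of all genes, with a median of −0.02 beside −0.13 for all genes. Vcl, the actin-binding protein vinculin and a partner of alpha catenin, rose from 37.1 ± 3.01 to 52.1 ± 2.49 RPKM in cKO hearts (SD, n = 3; log2 fold change 0.49, limma, adjusted p = 0.0415). Popdc3, a membrane protein of the Popeye family, fell from 3.81 ± 0.276 to 1.90 ± 0.380 RPKM (−0.99, limma, adjusted p = 0.0275). The change of Vcl no longer passed without a filter (adjusted p = 0.0626), with eBayes without trend (0.0808), with the replicate block (0.0795) or without any one of the 6 samples (0.0553 to 0.160). That of Popdc3 no longer passed without a filter (0.0605), with totals without the 20 most abundant genes (0.0516) or without any one of 5 samples (0.0546 to 0.106), all but cKO replicate 3. With median-ratio scaling 4 rose and 1 fell, against 2.45% and 2.6% of all genes.

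**Figure D5:**
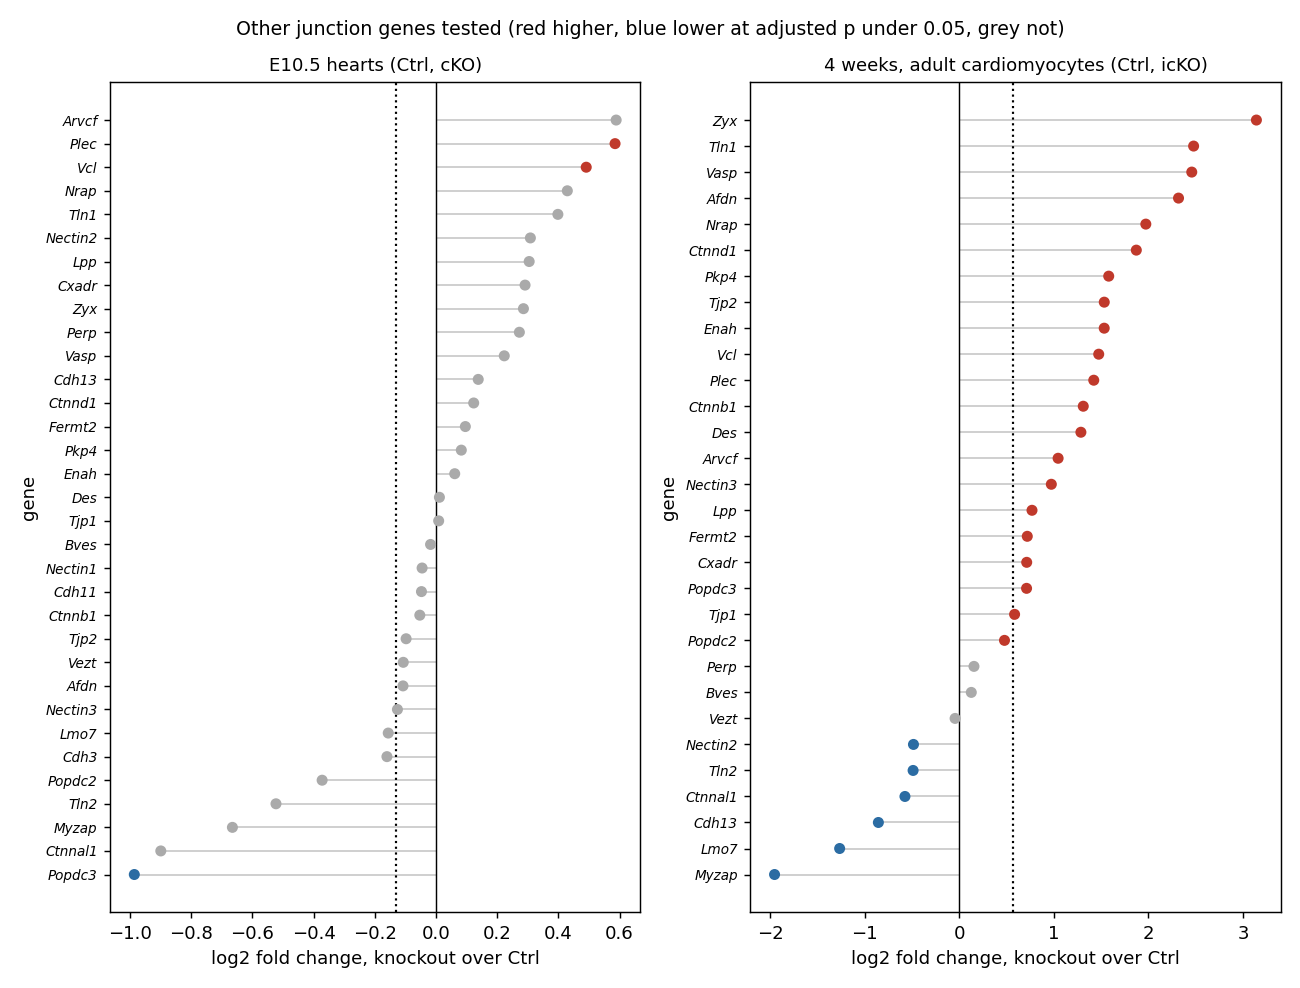
Log2 fold change (knockout over Ctrl, deposited RPKM) of the other junction genes tested, ranked, at E10.5 on the left and at 4 weeks on the right, each panel with its own axis. Red points rose and blue points fell at an adjusted p under 0.05 (limma), grey points did not pass, and the dotted line is the median of all genes; at 4 weeks 21 genes are red and 6 blue on this scale, against 14 higher and 9 lower with median-ratio scaling.

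Several marker sums of cell types differed between genotypes at 4 weeks. The marker counts are on the deposited scale, where 60.6% of all genes rose and 18.1% fell. Summed over 10 cardiomyocyte markers, RPKM went from 27786–29175 in Ctrl to 10486–13559 in icKO, with 8 of the 10 lower (Myh6, Myl2, Myl3, Tnnt2, Tnni3, Actc1, Ttn and Ryr2) and 2 higher (Actn2 and Nkx2-5). The sum over 7 fibroblast markers went from 4.78–8.04 to 35.4–61.3 RPKM, with all 4 markers tested higher. The sums over 6 endothelial markers overlapped, at 8.90–24.9 RPKM in Ctrl and 23.6–43.1 RPKM in icKO, with 3 of 6 higher. The sum over 6 macrophage markers went from 2.44–3.97 to 5.10–7.72 RPKM, with both markers tested higher. The sum over 5 mural markers went from 60.4–68.2 to 20.7–43.5 RPKM, with 2 of 4 higher and 1 lower, the last being Abcc9, which cardiomyocytes also express. Ctnna1 and Jup are also made by such other cells, and the part of these markers in the result was not tested.

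Markers of surface and gut epithelium, the tissues richest in desmosomes, summed to 0.115 RPKM or less in every adult sample, with Cdh1, Krt5 and Krt15 at 0 in all of them, and to 0.072–0.456 RPKM in E10.5 samples. At E10.5 the cardiomyocyte sum ranged over 6779–9965 RPKM in Ctrl and 4948–5916 RPKM in cKO, without overlap. None of the 10 cardiomyocyte markers passed the test in either direction. The fibroblast sums (79.7–129 and 96.2–108 RPKM), the endothelial sums (127–171 and 148–155 RPKM) and the mural sums (26.7–31.9 and 28.0–29.4 RPKM) overlapped between the E10.5 groups. The epicardial sums overlapped at E10.5 (48.9–57.4 and 40.2–57.1 RPKM), with 1 marker lower, and at 4 weeks (1.06–3.05 and 1.97–4.05 RPKM). The erythroid sums overlapped too, at 228–765 and 362–2148 RPKM at E10.5 and 1.17–7.46 and 3.87–8.41 RPKM at 4 weeks. The macrophage sums at E10.5 were 8.48–11.1 RPKM in Ctrl and 4.90–6.82 RPKM in cKO, without overlap. Of the 2 macrophage markers tested there, Lyz2 was lower (log2 fold change −1.04, limma, adjusted p = 0.0275).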

How the data were processed

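Whole E10.5 hearts and isolated adult cardiomyocytes, 4 weeks after tamoxifen, were sequenced, with 3 Ctrl and 3 knockout samples at each stage. The labels give the groups, and the E10.5 knockout columns, headed icKO, hold the cKO samples. Libraries were made from ribosomal RNA-depleted total RNA. The authors mapped reads to GRCm38 (mm10) and deposited RPKM per gene symbol in 1 table per stage. The submitters' processing notes name cutadapt 2.6, STAR 2.5.3a, HOMER 4.11.1 and DESeq2 1.12.4, without their settings. Log2 fold changes and adjusted p values of the authors' own DESeq2 comparison stand in the same tables and were not used. Columns of samples outside the series numbered 0.

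RPKM are not counts, so no count test was run. For each stage limma 3.58.1 (lmFit, eBayes with trend; R 4.3.3) was fitted to log2(RPKM + 0.1), keeping genes whose mean over its 6 samples exceeded 1 RPKM, with Benjamini-Hochberg adjustment. The difference between stages was a contrast in 1 fit of the 12 samples, for genes passing at both stages. The fits were tested on simulated data. Tables were read with Python 3.11.15, pandas 2.3.3 and numpy 2.4.6. Reads per sample were estimated as the depth at which low RPKM values lie nearest to whole reads, which put 56.5% to 64.6% of those values at most 0.1 reads from a whole number (chance gives 20%). No sample duplicated another.

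The genes named are the 10 members, Med30, the 2 genes with the largest change in each direction of each list of other junction genes (adjusted p under 0.05, groups apart), and the 2 genes whose profile lies nearest to each member's. Des and Perp complete a list of 4, and marker genes are named where a marker list is counted. The members and the gene lists were chosen with earlier results of these data known. Ratios within a role, shares of the desmosome sum and its median-ratio values were added after the values had been seen. Alternatives were pseudocounts of 1 and 0.01, no filter, a mean RPKM above 5, 3 rescalings (median-ratio, quantile, and totals without the 20 most abundant genes), eBayes without trend, the replicate number as a block, and omission of each sample. Promoter windows came from RefSeq (GRCm38.p6), cut, at a gene's first start, to the part before its starts in both RefSeq and GENCODE, and gene positions from the GENCODE annotation of GRCm38. Protein sequences, Western blots and histology are not analysed here.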

Additional observations from a re-analysis of the deposited data

Results flagged for a closer look

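The effect of the knockout differed between the 2 stages, by the contrast in 1 limma fit, for 5 of the 9 genes tested at both. Of all 8909 genes in this fit, 59.4% had a higher and 9.29% a lower effect at 4 weeks. The effect at 4 weeks minus the effect at E10.5 was −0.57 in log2 for Dsp (adjusted p = 0.00917), −0.52 for Dsg2 (adjusted p = 0.0383) and −1.43 for Dsc2 (adjusted p = 3.02e-06). It was 0.68 for Jup (adjusted p = 0.00148) and 1.05 for Xirp1 (adjusted p = 0.00102), where the median difference of all genes was 0.69. Relative to that median, the differences were −1.26 for Dsp, −1.21 for Dsg2, −2.13 for Dsc2, −0.01 for Jup and 0.35 for Xirp1. With median-ratio scaling those of Jup (limma, adjusted p = 0.942) and Xirp1 (adjusted p = 0.158) did not pass. That of Dsg2 did not pass with the replicate block (limma, adjusted p = 0.0650). With 1 sample left out, the adjusted p of Dsg2 reached 0.0965 (limma). In a group of 3 samples no single sample was tested as standing apart.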

How the results depend on the processing

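The changes at 4 weeks of Jup, Xirp1, Xirp2, Dsg2, Dsc2 and Dsp kept direction and adjusted p under 0.05 (limma) under all 9 alternatives and all 6 omissions of a sample. With median-ratio, quantile and no-top-20 scaling, members higher at E10.5 numbered 3, 4 and 4 (0 as deposited), members higher at 4 weeks 3, 4 and 3 (5 as deposited) and members lower at 4 weeks 5, 4 and 4 (3 as deposited). Of all genes, 2.45%, 2.82% and 3.76% rose at E10.5 (0.864% as deposited) and 2.6%, 2.38% and 1.93% fell (3.45% as deposited). At 4 weeks 34.7%, 37.1% and 50% rose (60.6% as deposited) and 33.5%, 31.6% and 23.7% fell (18.1% as deposited). With median-ratio scaling 0 members were higher beyond 1 in log2 at 4 weeks and 2 lower (also 2 with quantile normalization). The median-ratio shares of all genes were 11.6% and 15.5%. Members with a higher effect at 4 weeks than at E10.5 numbered 0, 1 and 1 (2 as deposited), and beyond 1 they numbered 0 under all 3 rescalings. Those with a lower effect numbered 7, 6 and 5 (3 as deposited, 2 without a filter), and beyond 1 they numbered 3, 2 and 1. Among all genes 26.7%, 25.5% and 39.7% had a higher effect (59.4% as deposited) and 26.3%, 19.8% and 17.4% a lower one (9.29% as deposited). Beyond 1 with median-ratio scaling, these shares were 9.97% and 13.1%. Other junction genes higher at E10.5 numbered 5, 8 and 8 (2 as deposited), 0 without a filter and 0 with eBayes without trend, and those lower numbered 0 without a filter and 0 with no-top-20 scaling (1 as deposited). Other junction genes with a higher effect at 4 weeks numbered 13 with median-ratio and 13 with quantile scaling (21 as deposited), and those with a lower effect 8 with median-ratio scaling (4 as deposited).

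Signs turned for values that were not past the test, or that rescaling brought below 0. In the order median-ratio, quantile and no-top-20, Dsc2 at E10.5 was 0.10, 0.10 and 0.16 and Pkp2 at 4 weeks −0.31, −0.20 and −0.018. Ctnna3 at 4 weeks was −0.13 and −0.082 with the first 2, and Ctnna1 at 4 weeks −0.10 with the first. The difference between stages was −0.67, −0.59 and −0.38 for Pkp2, −0.64, −0.46 and −0.35 for Cdh2, −0.45, −0.25 and −0.16 for Ctnna1, −0.67, −0.65 and −0.38 for Ctnna3 and, with the first 2, −0.014 and −0.0051 for Jup.

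With 1 sample left out, Dsg2 at E10.5 ranged from −0.064 to 0.18 and Dsc2 at E10.5 from −0.065 to 0.055. The differences between stages ranged from −0.087 to 0.13 for Pkp2, −0.035 to 0.15 for Cdh2 and −0.019 to 0.11 for Ctnna3. Other junction genes at E10.5 then numbered 0 higher and 0 to 3 lower. Members with a higher effect at 4 weeks beyond 1 numbered 0 to 1, since Xirp1 fell to a difference of 0.86 at the lowest (0 without Ctrl or cKO replicate 1 at E10.5, Ctrl replicate 1 or icKO replicate 2 at 4 weeks).

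Replicate numbers did not pair the samples. Same-numbered Ctrl and knockout samples correlated at 0.01, 0.10 and −0.07 at E10.5 and at 0.15, 0.04 and 0.05 at 4 weeks, and not every sample correlated best with its own number. With the replicate number as a block, member counts were 0 higher and 0 lower at E10.5, 5 higher and 3 lower at 4 weeks, and 2 with a higher and 2 with a lower effect at 4 weeks, Dsg2 then having an adjusted p of 0.0650. Other junction genes higher at E10.5 numbered 0 with the block.

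The direction of Pkp2, Ctnna1 and Ctnna3 at 4 weeks therefore depends on the scaling chosen. With 3 samples a group, changes within the intervals given could not be detected.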

Other observations

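For each of the 9 members tested at both stages, the genes with the nearest profile were found among the 8909 genes of the stage contrast, by the root mean square difference over the 12 samples of log2(RPKM + 0.1) after subtraction of the Ctrl mean of the stage. A small distance says that both genes moved alike with genotype and sample, and the samples share library depth and scale, so it is given as a description.

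Dsp lay nearest to Mybpc3, cardiac myosin binding protein C (0.103), and then to Yae1d1 (0.111), where the median distance to all genes was 0.596. Dsc2 lay nearest to Ech1, a peroxisomal and mitochondrial enzyme of fatty acid oxidation (0.0939), and 4930402H24Rik (0.116), and only 55 genes came within 0.2 of it. Dsg2 lay nearest to Ift172 (0.103) and Patl1 (0.117).

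Jup lay nearest to Lyn, a kinase best known from blood cells (0.0870), and to Notch2, a Notch receptor (0.111). Xirp1 lay nearest to Dlgap4 (0.0758) and Dhx8 (0.122), with 44 genes within 0.2, the fewest of the 9. Pkp2 lay nearest to Zfp512b (0.0858) and Wbp1l (0.0862), Cdh2 to Lmo4 (0.0937) and Hist1h4h (0.0951), and Ctnna3 to Dock4 (0.0878) and Pkd1 (0.0914). Ctnna1 lay nearest to Kmt2e (0.0613) and Prpf8 (0.0699), and 766 genes came within 0.2 of it, the most of the 9.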
